A study of Mus musculus with 20 samples.

Results

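The genes of the renal collecting duct that move water, sodium, acid and base were examined through 10 of them: Aqp2, Aqp3, Avpr2, Scnn1b, Scnn1g, Fxyd4, Slc4a1, Slc26a4, Atp6v1b1 and Foxi1. They were chosen by symbol for their known role, and all 10 were found by their Ensembl identifiers among the 57010 genes of the count table. Of these 10, 6 are principal cell genes and 4 are intercalated cell genes.

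The collecting duct is the last tubular segment of the kidney and sets the final volume, salt content and acidity of the urine. Its principal cells take up water and sodium: vasopressin binds the V2 receptor (Avpr2), raises cyclic AMP and brings the water channel aquaporin 2 (Aqp2) to the apical membrane, water leaves through aquaporin 3 (Aqp3) on the basolateral side, and sodium enters through the epithelial sodium channel, of which Scnn1b and Scnn1g encode the beta and gamma subunits. Fxyd4 encodes a small membrane protein that regulates the sodium pump. The intercalated cells handle acid and base through a vacuolar proton pump that contains the subunit encoded by Atp6v1b1, through the chloride/bicarbonate exchanger AE1 (Slc4a1) of the acid-secreting type and through pendrin (Slc26a4) of the base-secreting type, and the forkhead transcription factor Foxi1 is needed for these cells to form.

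Gene expression was measured by RNA sequencing of polyadenylated RNA in the kidney and the liver of male UM-HET3 mice, a genetically heterogeneous stock. Mice that were 12 months old received either 7c or vehicle for 28 days from osmotic minipumps placed under the skin. 7c is a cocktail of repsox, tranylcypromine, DZNep, CHIR99021, forskolin and TTNPB at 0.1 mg/kg/day each, with valproate at 1 mg/kg/day, and vehicle was 50% DMSO and 50% PEG300, so all groups carried the pump and every mouse had the same genotype label. There were 6 kidneys and 6 livers of 7c mice and 4 kidneys and 4 livers of vehicle mice, labelled as biological replicates. Forskolin activates adenylyl cyclase, the enzyme that also acts below the V2 receptor, and the comparison of 7c with vehicle asks how these genes stood in mice that had received the cocktail.

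The libraries held between 27855849 and 64872451 counts. In kidney the first principal component of all tested genes carried 40.5% of the variance and set 7c replicate 5 (-1.74 SD) and vehicle replicate 2 (-1.42 SD) apart from the other 8 kidneys, which lay between -0.61 and 1.09. Mitochondrial transcripts made up 3.98% of the counts in 7c replicate 5 and between 5.93 and 9.15% in the other kidneys. Kidneys with a negative score on the component held 3.98 to 6.75%, and those with a positive score 8.01 to 9.15%. The relation of this share to the members was not tested. The tissue labels held, with the proximal tubule gene Slc34a1 and the thick limb gene Umod at 0 in every liver and at means of 6646 and 1996 CPM over the 10 kidneys. Levels are in CPM, counts scaled to the size of the library after TMM normalisation. The RNA came from homogenised pieces of frozen tissue, in which fewer cells of a type and less RNA per cell cannot be told apart.

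The promoters of a principal cell gene and an intercalated cell gene are shown first, since these are the members past the count filter that hold a motif of a factor tied to the cell: a short cyclic AMP response motif in Aqp2, the target of vasopressin, and a forkhead core in Atp6v1b1. Each window runs from 250 bases before to 50 bases after the annotated transcription start, 5′ to 3′ on the strand of the gene, read from the GRCm39 genome with GENCODE vM39 starts. The window of Aqp2 (ENSMUSG00000023013) is chr15:99476686-99476985 on the plus strand and that of Atp6v1b1 (ENSMUSG00000006269) is chr6:83719717-83720016, also on the plus strand. Capitals mark the motif, which in Aqp2 reads as CGTCA because it lies on the opposite strand.
Aqp2: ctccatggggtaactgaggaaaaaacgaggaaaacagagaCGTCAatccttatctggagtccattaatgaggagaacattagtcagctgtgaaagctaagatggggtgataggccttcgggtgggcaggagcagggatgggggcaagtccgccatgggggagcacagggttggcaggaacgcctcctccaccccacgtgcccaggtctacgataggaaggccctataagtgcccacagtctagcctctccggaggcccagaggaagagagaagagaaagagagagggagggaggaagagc
Atp6v1b1: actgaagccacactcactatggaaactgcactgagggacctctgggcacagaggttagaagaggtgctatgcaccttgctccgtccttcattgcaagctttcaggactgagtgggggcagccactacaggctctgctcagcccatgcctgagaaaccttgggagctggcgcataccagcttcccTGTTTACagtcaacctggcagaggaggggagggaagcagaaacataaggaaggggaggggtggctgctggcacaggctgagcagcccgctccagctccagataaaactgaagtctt

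The short motif TGACG was in 1 of the 10 members, Aqp2, where it lay 210 bases before the start. Among 21247 promoters of the same length, searched on both strands but not on every chromosome, 22.5% held it. The full element TGACGTCA, which contains the short one, was in 0 of the 10 members and in 2.45% of all promoters. The forkhead core TGTTTAC stood 66 bases before the start of Atp6v1b1 and 131 bases before that of Avpr2, and 3.15% of all promoters held it. It was not in this window of Slc26a4, Slc4a1 or Foxi1. Each gene was searched at a single annotated start, and whether that start is the one used in kidney was not tested. The letters TATAAA were found 29 bases before the start of Aqp3, 87 bases before that of Slc26a4 and, on the opposite strand, 45 bases before that of Avpr2, and 13.3% of all promoters held them.

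No difference between 7c and vehicle kidneys in these collecting duct genes exceeded the spread between mice. With edgeR's quasi-likelihood test, 0 of the 9 members that passed the filter were called, beside 0% of all 17749 genes tested. At an unadjusted p under 0.05, 0 of 9 members and 2.61% of all genes (463) were past the threshold. That background moved with single kidneys, to 1801 of 17514 genes without vehicle replicate 2, to 769 of 17518 without 7c replicate 3 and to 1530 of 17874 without vehicle replicate 2 and 7c replicate 5. Over all genes DESeq2 called 18, edgeR's likelihood ratio test 14 and limma-voom 2, none of them a member. In no member were the 2 groups without overlap, which held for 0.716% of all genes. Among the 9 members 6 were higher and 3 lower in 7c, with a median log2 fold change of 0.07 against -0.01 over all genes, and their 95% intervals together ran from a 0.633-fold to a 1.78-fold level. The tenth member, Avpr2, had too few counts to be tested.

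**Figure D1:**
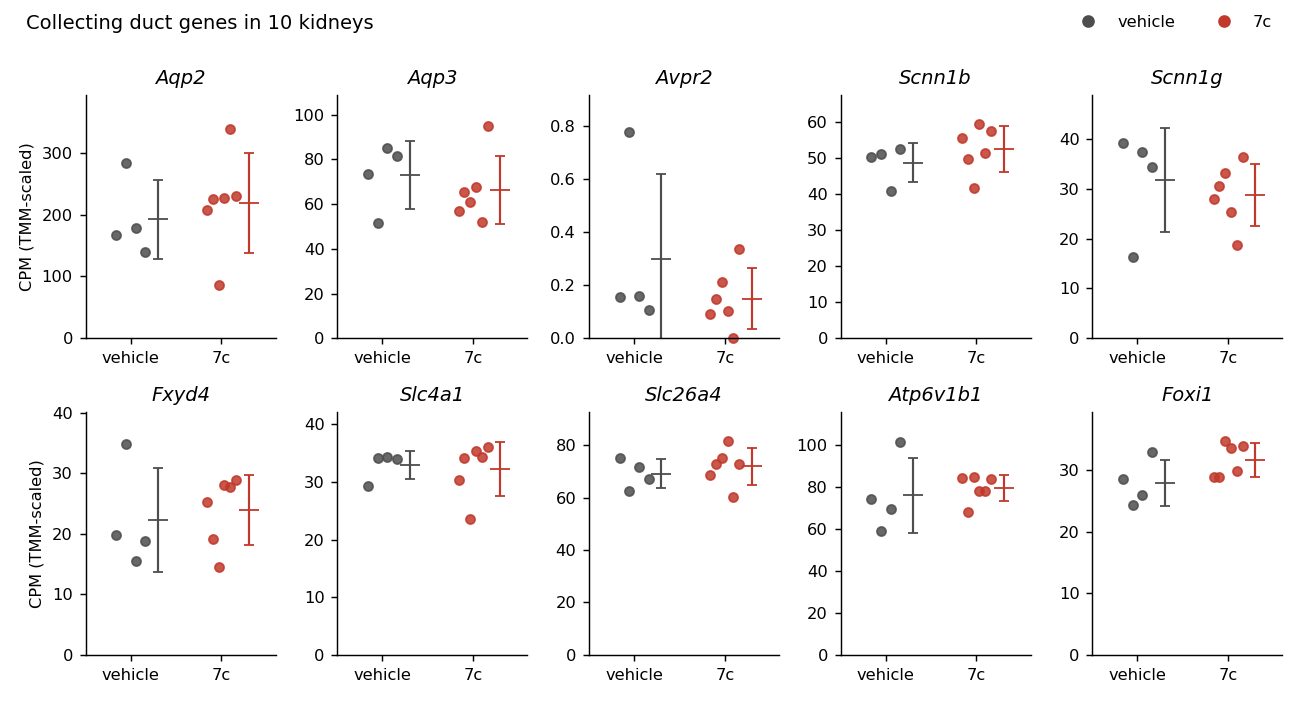
Level of the 10 genes in each kidney in CPM (TMM-scaled, linear axes from 0), with 1 point per mouse and the mean ± SD beside the points for vehicle (grey, n = 4) and 7c (red, n = 6); the lower bar of Avpr2 in vehicle is cut at 0. The points of the 2 treatments overlap in every panel, and Aqp2 spans the widest range of the 9 tested genes, from 86.3 to 339 CPM.

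Aqp2 (chr15:99476936-99485016, plus strand, with all gene positions on GRCm39) was the most abundant member and, of the 9 tested, the one that varied most. Its level was 168, 284, 178 and 139 CPM in vehicle replicates 1 to 4, and in the 6 7c kidneys it ran from 86.3 CPM through a median of 226 to 339 CPM. The lowest and the highest of the 10 kidneys were both 7c kidneys, replicates 3 and 5, and the vehicle values all lay between them. The means were 219 ± 80.5 CPM in 7c (SD, n = 6) and 192 ± 63.3 in vehicle (SD, n = 4). The log2 fold change was 0.19 with an SE of 0.298 and a 95% interval from -0.46 to 0.83 (adjusted p = 0.997, edgeR quasi-likelihood test, Benjamini-Hochberg over all genes), which spans both a 0.728-fold and a 1.78-fold level.

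Aqp3 (chr4:41092722-41098183, minus strand), the exit route for water, was 73.6, 51.7, 85.2 and 81.7 CPM in the vehicle kidneys. In the 7c kidneys it lay between 51.9 and 94.98 CPM with a median of 63.2. Of the 6 7c kidneys 5 were at or under 67.7 CPM, whereas replicate 6 had the highest value of all. The log2 fold change was -0.14 (SE 0.180, 95% interval -0.53 to 0.25, edgeR adjusted p = 0.997).

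The subunits of the sodium channel were read from neighbouring genes on chromosome 7, and their differences were of opposite sign without passing the test. Scnn1b (chr7:121463946-121517737, plus strand), the beta subunit, was 50.3, 51.1, 40.8 and 52.5 CPM in vehicle and between 41.7 and 59.3 CPM in 7c, with a median of 53.5. Of the 6 7c kidneys 3 stood above every vehicle kidney, and the log2 fold change was 0.11 (SE 0.123, 95% interval -0.16 to 0.38). Scnn1g (chr7:121333545-121367755, plus strand), the gamma subunit, was 39.1, 16.3, 37.4 and 34.3 CPM in vehicle and between 18.7 and 36.4 CPM in 7c, with a median of 29.2. The 2 kidneys lowest in Scnn1g were vehicle replicate 2 and 7c replicate 5, which are the kidneys that stood apart on the first component. The log2 fold change of Scnn1g was -0.15 (SE 0.236, 95% interval -0.66 to 0.36), and edgeR's adjusted p was 0.997 for both subunits.

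Fxyd4 (chr6:117910299-117914653, minus strand), the regulator of the sodium pump, was 19.8, 34.8, 15.5 and 18.8 CPM in vehicle and between 14.5 and 28.9 CPM in 7c, with a median of 26.6. Vehicle replicate 2 had the highest value of the 10 kidneys, and the groups overlapped over most of their range. The log2 fold change was 0.11 (SE 0.244, 95% interval -0.42 to 0.64, edgeR adjusted p = 0.997).

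The intercalated cell genes varied less from kidney to kidney than Aqp2, Scnn1g, Fxyd4 and Aqp3 did. Slc26a4 (chr12:31568169-31610244, minus strand), encoding pendrin, was 75.2, 62.6, 71.5 and 67.1 CPM in vehicle and between 60.1 and 81.7 CPM in 7c, with a median of 72.8. Slc4a1 (chr11:102239650-102257029, minus strand), encoding AE1, was 29.2, 34.2, 34.4 and 34.0 CPM in vehicle and between 23.6 and 36.0 CPM in 7c, with a median of 34.2. The log2 fold changes were 0.06 for Slc26a4 (SE 0.107, 95% interval -0.18 to 0.29) and -0.03 for Slc4a1 (SE 0.130, 95% interval -0.31 to 0.25). The interval of Slc26a4 was the narrowest of the 9 members, and edgeR's adjusted p was 0.997 for both exchangers.

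Atp6v1b1 (chr6:83719967-83735837, plus strand), the proton pump subunit, was 74.5, 59.1, 69.5 and 101 CPM in vehicle and between 68.3 and 84.9 CPM in 7c, with a median of 81.1. All 6 7c values lay inside the vehicle range, and the log2 fold change was 0.07 (SE 0.141, 95% interval -0.24 to 0.37). Foxi1 (chr11:34154338-34158089, minus strand), the transcription factor of the intercalated cell, was 28.5, 24.3, 26.0 and 32.9 CPM in vehicle and between 28.8 and 34.7 CPM in 7c, with a median of 31.7. All 7c kidneys were above 3 of the 4 vehicle kidneys, and 3 of them were above the remaining one too. Foxi1 had the smallest unadjusted p of the members, with a log2 fold change of 0.18 (SE 0.118, 95% interval -0.08 to 0.43, edgeR adjusted p = 0.997).

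Without 7c replicate 5 and vehicle replicate 2, a setting added after the data were seen, again 0 of 9 members were called. The log2 fold change was then 0.27 for Aqp2, -0.21 for Aqp3, -0.27 for Scnn1g and 0.36 for Fxyd4, more than 1.5 times the value over all kidneys for Aqp3, Scnn1g and Fxyd4, and it went to -0.03 for Atp6v1b1. The adjusted p of the members stayed at or above 0.478 when any single kidney was left out and under every other setting.

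**Figure D2:**
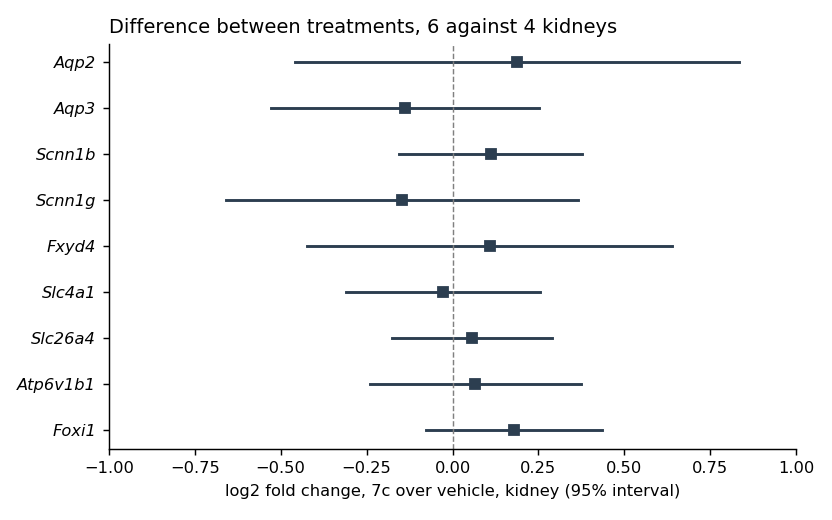
Log2 fold change of 7c over vehicle in kidney for the 9 tested genes (squares) with the 95% interval of the edgeR quasi-likelihood fit (lines), 6 against 4 kidneys. All 9 intervals include 0, from the narrow one of Slc26a4 (-0.18 to 0.29) to the wide one of Aqp2 (-0.46 to 0.83).

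Avpr2 (chrX:72935708-72939108, plus strand), the vasopressin receptor, was close to the limit of detection. Its counts were 6, 28, 6 and 3 in vehicle kidneys and 6, 5, 8, 4, 0 and 14 in 7c replicates 1 to 6. In liver they were 0, 0, 16 and 4 in vehicle and between 0 and 8 in 7c, so kidney and liver overlapped. Of the exon bases of Avpr2, 81.3% lie within exons of Arhgap4 on the opposite strand, a gene with between 91 and 297 counts per kidney and between 85 and 218 per liver. The library kit keeps the strand, but the strand setting of the counting is not given in the sources used here, and whether some of these counts came from Arhgap4 was not tested. A difference between treatments was not detectable for the receptor at this depth.

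The order of the members was set on RPKM, counts scaled to library size and to the length of the gene's exons. Over the 10 kidneys Aqp2 led with a mean of 52.0 RPKM, followed by Aqp3 with 37.7. Then came Atp6v1b1 with 17.8, Scnn1b with 17.3, Foxi1 with 12.8, Slc26a4 with 11.2, Fxyd4 with 10.7, Scnn1g with 9.33 and Slc4a1 with 6.66 RPKM, and Avpr2 closed the order with 0.0726. Only 2 steps of this order were free of overlap over the kidneys, that from Aqp3 to Atp6v1b1 and that from Slc4a1 to Avpr2. All other neighbours had overlapping ranges, and Atp6v1b1 exceeded Scnn1b in 5 of 10 kidneys.

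The spread between kidneys also ordered the genes. The SD of log2 CPM over the 10 kidneys was 0.555 for Aqp2, 0.429 for Scnn1g, 0.421 for Fxyd4 and 0.302 for Aqp3, against a median of 0.349 over all tested genes. It was 0.213 for Atp6v1b1, 0.185 for Slc4a1, 0.177 for Scnn1b, 0.172 for Foxi1 and 0.132 for Slc26a4. The water channel thus varied more than 74.7% of tested genes and pendrin more than 6.82% of them.

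Much of the spread of Aqp2, Scnn1g and Fxyd4 ran along the first component of all kidney genes, to which the members themselves contribute. Since the component was made from the same libraries, these relations are a description and carry no test. Scnn1g followed the component closely (Pearson r = 0.95, Spearman rho = 0.89, n = 10), and without the 2 kidneys farthest from its median, 7c replicate 5 and vehicle replicate 2, r was 0.90. Aqp2 (r = -0.79, rho = -0.76) and Fxyd4 (r = -0.79, rho = -0.70) ran against it, with r of -0.62 and -0.71 without those kidneys. Aqp3 followed it (r = 0.73, rho = 0.68), but r was 0.41 without them, so its relation rests on those kidneys. For Scnn1b r was -0.46, and -0.76 without those kidneys. For Slc26a4 it was 0.60 and turned to -0.24 without them, for Atp6v1b1 it went from 0.35 to -0.02, for Foxi1 from 0.28 to -0.19, and for Slc4a1 it was -0.42 both ways. With each treatment centred on its own mean, r was 0.96 for Scnn1g, -0.79 for Aqp2 and -0.78 for Fxyd4. The relation to the component was examined after the levels had been seen.

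**Figure D3:**
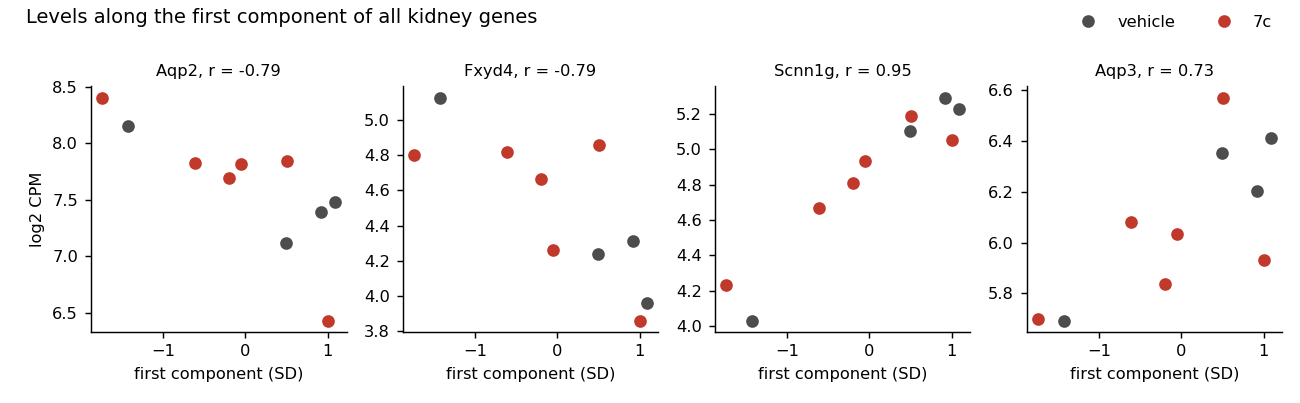
Log2 CPM of Aqp2, Fxyd4, Scnn1g and Aqp3 (vertical axes) against the score of each kidney on the first component of all tested genes, in SD (horizontal axes), with 1 point per mouse, vehicle grey and 7c red. The 2 kidneys at the far left, 7c replicate 5 and vehicle replicate 2, are the highest in Aqp2 and the lowest in Scnn1g and Aqp3.

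The members of a cell type did not all vary together. Of the 10 pairs of principal cell members, 6 had a negative Pearson r over the 10 kidneys, with a median r of -0.13. Among the 6 pairs of intercalated cell members 3 were negative, with a median of -0.03. The 20 pairs between the cell types had 7 negative and a median of 0.26. Over all 36 pairs among the 9 tested members, 16 were negative and the median r was 0.18. The strongest pairs were Aqp3 with Scnn1g (r = 0.81, rho = 0.83), Aqp2 with Fxyd4 (r = 0.80, rho = 0.84), Atp6v1b1 with Foxi1 (r = 0.79, rho = 0.72) and Scnn1b with Fxyd4 (r = 0.77, rho = 0.67). Their permutation p ran from 0.00364 to 0.00758, and the adjusted p over 36 pairs was 0.0682 for each of them, with adjusted p of rho from 0.0842 to 0.285. Without the 2 kidneys farthest from the median of the first gene, r was 0.78, 0.77, 0.70 and 0.40. Scnn1g and Fxyd4, which both serve sodium uptake in the same cell, had a negative r (r = -0.71, permutation p = 0.0207, adjusted p = 0.124; rho = -0.53, permutation p = 0.123), and r was -0.46 without vehicle replicate 2 and 7c replicate 5.

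A set of 8 pairs was tested separately, and none passed. The beta and gamma subunits of the sodium channel had r = -0.26 (rho = -0.32, permutation p = 0.483, adjusted p = 0.844 over 8 pairs). Aqp2 and Atp6v1b1, which stand for the principal and the intercalated cell, had r = -0.48 (rho = -0.49, permutation p = 0.158, adjusted p = 0.590), and Slc26a4 with Foxi1 had r = 0.47 (rho = 0.39, permutation p = 0.170, adjusted p = 0.590). Slc4a1 with Atp6v1b1 had r = -0.21 and Aqp2 with Avpr2 had r = -0.13, with adjusted p of 0.844 and 0.933 by permutation. Aqp2 had r = -0.03 with Umod of the thick ascending limb and 0.43 with Slc34a1 of the proximal tubule, with adjusted p of 0.933 and 0.590 by permutation. The adjusted p of rho was 0.786 or more for all 8 pairs. Without the 2 kidneys farthest from the median of the first gene, r turned to 0.65 for Aqp2 with Avpr2 and to 0.13 for Scnn1b with Scnn1g, and it was -0.67 for Aqp2 with Atp6v1b1 and 0.07 for Aqp2 with Slc34a1.

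Ratios within a library compare 2 members without the scaling between libraries. The log2 ratio of Aqp2 to Atp6v1b1 was 1.36 ± 0.712 in 7c (SD, n = 6) and 1.31 ± 0.744 in vehicle (SD, n = 4), a difference of 0.04 (two-sided exact permutation p = 0.924). That of pendrin to AE1, Slc26a4 to Slc4a1, was 1.16 ± 0.286 in 7c (n = 6) and 1.07 ± 0.210 in vehicle (n = 4), a difference of 0.09 (exact permutation p = 0.624). The ratio of Aqp2 to Aqp3 differed by 0.27 (95% interval -0.82 to 1.37, exact permutation p = 0.576) and that of Scnn1b to Scnn1g by 0.21 (95% interval -0.57 to 0.99, exact permutation p = 0.548). After adjustment over the 4 ratios p was between 0.832 and 0.924, and the smallest p that 6 against 4 kidneys allow is 0.00476. Across single kidneys the ratio of Aqp2 to Atp6v1b1 spanned 4.73-fold and that of Slc26a4 to Slc4a1 1.81-fold.

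**Figure D4:**
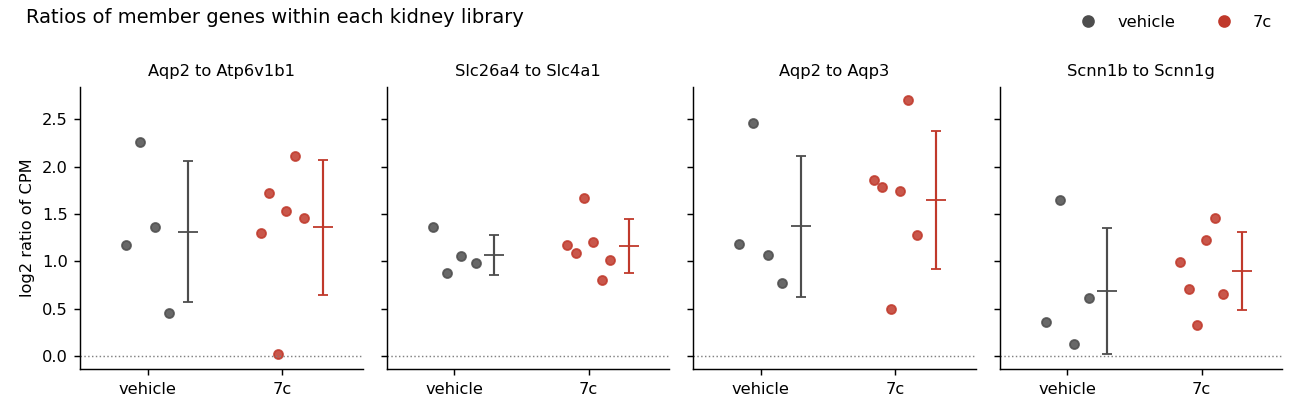
Log2 ratio of CPM of 4 pairs of members within each kidney library, with 1 point per mouse and the mean ± SD beside it for vehicle (grey, n = 4) and 7c (red, n = 6). The treatments overlap in all 4 panels, and the ratio of Slc26a4 to Slc4a1 lies in the narrowest band, from 0.81 to 1.67.

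Other genes of the same cells were called as little as the members. Of 53 further collecting duct genes 52 were tested, of which 30 were higher and 22 lower in 7c, with 0 called and a median log2 fold change of 0.04. Hsd11b2, the enzyme that keeps glucocorticoids from the mineralocorticoid receptor, was the only one with an unadjusted p under 0.05 in edgeR, beside 2.61% of all genes. It was at 164 ± 19.9 CPM in 7c (n = 6) and 134 ± 18.4 in vehicle (n = 4), and its adjusted p was 0.997. The log2 fold change was 0.29 (SE 0.128). Of the principal cell genes 19 were higher and 9 lower, among them the alpha channel subunit Scnn1a (0.10), Aqp4 (-0.08), the mineralocorticoid receptor Nr3c2 (0.11), the adenylyl cyclase Adcy6 (-0.18), the kinase Sgk1 (0.14), the ubiquitin ligase Nedd4l (0.23) and the transcription factor Elf5 (-0.32), all as log2 fold changes. Of the 26 intercalated cell genes tested 13 were higher and 13 lower, among them the proton pump subunits Atp6v0d2 (-0.18), Atp6v1g3 (0.14) and Atp6v0a4 (-0.17), the transporter Slc4a9 (-0.08), the ammonia channels Rhbg (0.13) and Rhcg (0.26), and the carbonic anhydrase Car2 (-0.12). The 16 subunits of the proton pump used by all cells were split 8 and 8.

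Some marker lists of other cells leaned to a treatment without a call. Apart from the correlations with Hbb-bs, Umod and Slc34a1, their relation to the members' values was not tested. All 6 adipocyte markers had an unadjusted p under 0.05 in edgeR, all higher in 7c, with a median log2 fold change of 2.13. Their summed level was between 57.3 and 149 CPM in 7c against 37.1 to 49.5 in vehicle. None was called by edgeR's quasi-likelihood test (adjusted p = 0.997), whereas the study lists the marker Cidec among its differentially expressed kidney genes. All 5 tested urothelium markers and 5 of 6 inner medulla markers were higher in 7c, with medians of 1.00 and 0.39, of which the urothelium marker Upk1a alone had an unadjusted p under 0.05, and none was called. All 4 hepatocyte markers were lower, with a median of -0.64 and 2 of them, Alb (-1.08) and Apoa1 (-1.73), at an unadjusted p under 0.05 in edgeR, and so were all 4 podocyte markers, with a median of -0.12. Of proximal tubule markers 3 were higher and 3 lower, of thick limb markers 3 and 1, of distal convoluted tubule markers 1 and 2, and of smooth muscle markers 2 and 1. Slc4a1 is also a red cell gene, and the 5 tested erythroid markers were all higher in 7c with a median of 0.84, none with an unadjusted p under 0.05 in edgeR. Summed, the erythroid list lay between 471 and 2259 CPM in 7c and between 308 and 1309 in vehicle kidneys. The haemoglobin gene Hbb-bs and Slc4a1 had r = -0.04 over the 10 kidneys (rho = -0.08, permutation p = 0.918, adjusted p = 0.933), and r was -0.61 without 7c replicate 3 and vehicle replicate 1. Livers held between 61.2 and 517 CPM of Hbb-bs with 0 to 4 counts of Slc4a1, beside 160 to 985 CPM of Hbb-bs in kidneys. How much of the Slc4a1 in kidney came from red cells was not tested.

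Nearly all counts of the members came from kidney. Aqp3, Scnn1b, Scnn1g, Atp6v1b1 and Foxi1 had 0 counts in all 10 livers, Aqp2 had 4 counts in 1 liver and 0 in the other 9, Fxyd4 had at most 2 and Slc4a1 at most 4 counts. Against the floor of 3 counts per library, with kidneys and livers scaled together by TMM as in the tissue comparison, the vehicle kidneys were at least 529.8-fold higher in Aqp3, at least 552-fold in Atp6v1b1, at least 353-fold in Scnn1b, at least 230.3-fold in Scnn1g, at least 203-fold in Foxi1 and at least 162-fold in Fxyd4. On library totals without TMM the bounds were higher, at 811-fold for Aqp3 and 240.1-fold for Fxyd4. The bound follows each gene's level in kidney, the scaling and the depth of the livers. Of all tested genes, 28% were called higher in kidney than in liver in vehicle mice and 33.8% in 7c mice (edgeR). The 9 members past the filter were all called, but 8 of them passed it through the kidneys alone and so had to differ, and nothing is read from their calls. Slc26a4 is the member with counts enough in both tissues.

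**Figure D5:**
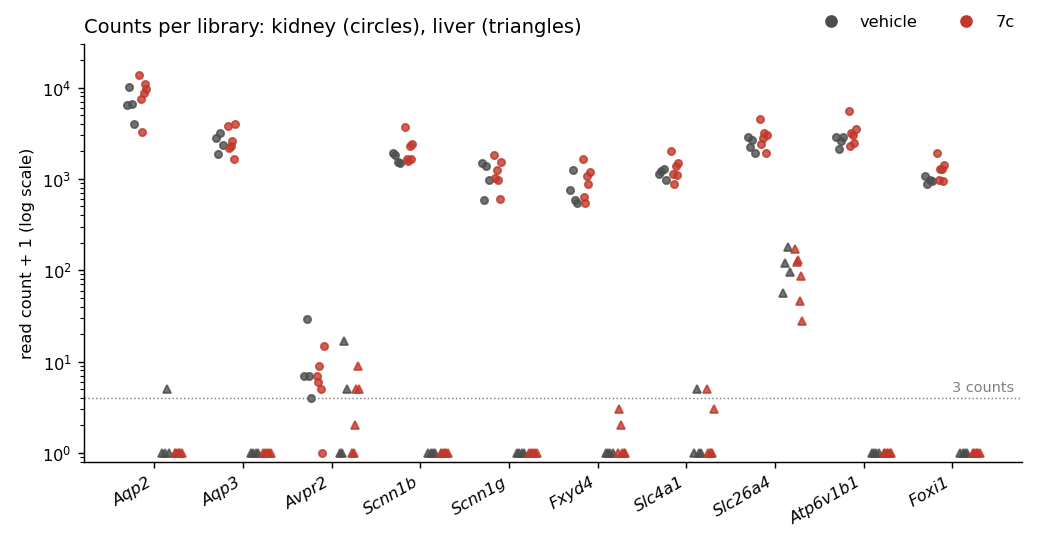
Read count plus 1 (log axis) of the 10 genes in each kidney (circles) and liver library (triangles), vehicle grey and 7c red; the dotted line marks 3 counts. Slc26a4 is the only gene with more than 16 counts in a liver, and Avpr2 is the only one whose kidney and liver points overlap.

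Slc26a4 was the member with a level of its own in liver. The livers held 55, 120, 177 and 95 counts in vehicle and between 27 and 170 in 7c, which is 3.26 ± 1.35 CPM (SD, n = 4) and 3.23 ± 1.73 CPM (SD, n = 6) when scaled within liver. Scaled together, kidney exceeded liver by 3.78 on the log2 scale in vehicle (SE 0.268, edgeR adjusted p = 3.87e-07) and by 3.82 in 7c (SE 0.317, edgeR adjusted p = 3.25e-08). In liver the log2 fold change of 7c over vehicle was -0.02 (SE 0.433, 95% interval -0.95 to 0.92, edgeR adjusted p = 1.00), beside 0.00666% of all 15012 liver genes called (1 gene, with 565 at an unadjusted p under 0.05). The interval is wider than in kidney, where the same gene had between 1920 and 4522 counts per library.

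The genes whose levels followed Aqp2 most closely over the 10 kidneys, among 14238 genes searched, were Gas6 (r = 0.96), Phlda3, Hexa, Anapc2 and Slc3a2 (each r = 0.94 to 0.95). For Atp6v1b1 they included Ppp2r5b (r = 0.93), Rcan2 (0.89), Adcy3 (0.88) and Prune1 (0.87). Adcy3, an adenylyl cyclase on the principal cell list, was the only one of those named here on a collecting duct list, and none was a member. These values are a description only.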

How the data were processed

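RNA of the kidney and the liver of 10 male mice was sequenced by the authors from stranded libraries of polyadenylated RNA. Per the submitters' processing notes, reads were aligned to GRCm39 with STAR 2.7.11b and counted with featureCounts 2.0.6, and the deposited values are whole-number counts per gene. The annotation release and the strand setting are not given in the sources used here. All 20 columns were mapped to a sample by their labels. Symbols and positions came from GENCODE vM39, which matched 56310 of 57010 identifiers.

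A gene was tested if 50% or more of the compared samples held 10 or more counts, and the test was made with edgeR 4.0.16 (R 4.3.3), by the quasi-likelihood F-test on TMM-scaled counts with treatment or tissue as the only term, Benjamini-Hochberg adjustment over all tested genes and a threshold of 0.05. The study's methods state this filter and a one-way model in edgeR fitted per tissue, without naming the edgeR function. The study lists differentially expressed kidney genes, among them Cidec but no member, whereas the quasi-likelihood test called none here. Between treatments, the samples of the 2 tissues were fitted apart. For kidney against liver, both tissues of a treatment were fitted together, unpaired. Log2 CPM used a prior count of 2, and RPKM used the union of exons. Group differences of ratios were tested by exact permutation over 210 arrangements and correlations by 100000 permutations (scipy 1.17.1). Alternatives were DESeq2 1.42.0, edgeR's likelihood ratio test, voom in limma 3.58.1, scaling by RLE, no filter, filterByExpr, a replicate block, both tissues together and leaving out each sample. Library totals of 27855849 to 64872451 counts set the precision, and the floor was 3 counts per library, which covers counting error only. The fits were tested on simulated data. Intervals are at 95%.

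The members, gene lists and tests were chosen with earlier results of these data known. The named genes are the 10 members, 15 listed genes of the same cells, up to 5 further listed genes with the smallest unadjusted p under 0.05, Hbb-bs, Umod and Slc34a1, and the 5 genes most like Aqp2 and Atp6v1b1 with a mean of at least 1 CPM, of which 1 is left out of the text. The relation to the first component and the 36 pairs were added after the data were seen. Nothing in the labels ties a kidney to a liver of the same number. Replicates were labelled biological, so p-values between treatments measure the spread between mice. The p-values of kidney against liver take the samples as unpaired, since the labels do not say which kidney and liver share a mouse.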

Additional observations from a re-analysis of the deposited data

Results flagged for a closer look

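Among 30 groups of member values in kidney and liver, 3 held a value set far from the rest of its group by Dixon's test, and chance flags about 1 in 20 groups. Aqp3 was highest in 7c replicate 6, at 94.98 CPM, with the next 7c kidney at 67.7 CPM. Avpr2 was highest in vehicle replicate 2, at 0.780 CPM or 28 counts, with the next vehicle kidney at 0.161 CPM. Slc4a1 was lowest in vehicle replicate 1, at 29.2 CPM, with the next vehicle kidney at 34.0 CPM.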

How the results depend on the processing

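The counts of members called (0 in kidney and 0 in liver between treatments, 9 and 9 between tissues) were the same under every alternative run, with between 15 and 19 alternatives per comparison. Nothing is read from the counts between tissues, since 8 of the 9 members passed the filter through the kidneys alone. Between treatments in kidney, no member's log2 fold change and no ratio passed the threshold under any of them, nor did the 8 correlations tested separately. A block by replicate number had no basis in the labels. Kidneys and livers of the same treatment and number had r from 0.0115 to 0.259, 7 of 10 over 0.1. In 7 of the 10 this r was higher than with any other number. For 7c and vehicle samples of the same number r was over 0.1 in 1 of 8. The block turned the log2 fold change of Aqp2 to -0.0897, that of Fxyd4 to -0.0038 and that of Slc26a4 in liver to 0.16. It turned the log2 ratio of Aqp2 to Atp6v1b1 to -0.17. Over all alternatives the log2 fold change in kidney ran from -0.107 to 0.0466 for Slc4a1 and from 0.0161 to 0.109 for Slc26a4. With deviations from the treatment means, r of Slc4a1 with Hbb-bs was 0.0084. Without 7c replicate 5 and vehicle replicate 2, chosen after seeing the data, the log2 fold change of Atp6v1b1 was -0.0316 and r was 0.688 for Aqp2 with Umod and -0.227 for Slc4a1 with Hbb-bs. The cause was not tested in any of these.

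Leaving out single samples gave log2 fold changes from 0.0215 to 0.444 for Aqp2, from -0.269 to -0.0562 for Aqp3, from 0.0351 to 0.169 for Scnn1b, from -0.358 to -0.0312 for Scnn1g, from -0.0822 to 0.0466 for Slc4a1, from -0.0323 to 0.236 for Atp6v1b1, from -0.0317 to 0.415 for Fxyd4, from 0.0161 to 0.103 for Slc26a4 in kidney and from -0.25 to 0.27 for Slc26a4 in liver. The log2 ratio difference then ran from -0.24 to 0.36 for Aqp2 to Atp6v1b1, from -0.0086 to 0.19 for Slc26a4 to Slc4a1, from 0.0626 to 0.638 for Aqp2 to Aqp3 and from 0.0212 to 0.527 for Scnn1b to Scnn1g. The correlations ran from -0.53 to 0.33 for Aqp2 with Avpr2, from -0.153 to 0.0747 for Slc4a1 with Hbb-bs, from -0.47 to 0.27 for Aqp2 with Umod, from -0.385 to -0.0423 for Slc4a1 with Atp6v1b1, from 0.0796 to 0.527 for Aqp2 with Slc34a1, from 0.27 to 0.585 for Slc26a4 with Foxi1 and from -0.401 to -0.0948 for Scnn1b with Scnn1g. Over all kidney genes the count called was 0 with edgeR's quasi-likelihood test, 3 without the filter and 3 without 7c replicate 5. With both tissues in 1 quasi-likelihood fit it was 18. By other tests it was 14 by likelihood ratio, 18 by DESeq2 and 2 by limma-voom. Depth limits Avpr2 and the liver counts of the members other than Slc26a4.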

Other observations

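Levels of the principal cell members summed per library lay between 237 and 489 CPM in 7c kidneys and between 327 and 439 CPM in vehicle kidneys. The intercalated cell members summed to between 202 and 229 CPM in 7c and between 180 and 235 CPM in vehicle. Without the filter on low counts, Avpr2 had a log2 fold change of -0.97 (SE 0.870, edgeR adjusted p = 0.833) in kidney.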
